A study of Homo sapiens with 9 samples.

Results

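The transcripts of 10 desmosome genes, DSP, PPL, JUP, PKP2, PKP3, PKP4, DSG2, DSC2, DSC3 and PERP, were followed in MDA-MB-231 cells, an established human breast carcinoma line, with the acyl-protein thioesterase APT1 (gene LYPLA1) knocked down or overexpressed. The genes were taken by symbol from the deposited Salmon tables, where all 10 were found among 58219 genes. There were 9 libraries, 3 in each of 3 groups: control cells carried a lentiviral scrambled RNA, shAPT1 cells a lentiviral short hairpin RNA against APT1, and APT1wt cells a lentiviral construct that overexpresses wild-type APT1. Puromycin selection for 72 hours is stated for the knockdown alone. A vector control of the overexpression arm is not among the libraries analysed here, so both arms were set against the same 3 scrambled controls, and the 2 comparisons with control share those libraries. Whether libraries of 1 group stem from separate cultures is not stated, and p-values therefore cover only the spread among these samples, which may be technical. In bulk RNA, fewer cells that express a gene and less RNA per cell cannot be told apart.

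Desmosomes are patch-like junctions that tie the intermediate filaments of neighbouring cells together. Desmogleins (DSG) and desmocollins (DSC) are the cadherins that bridge the gap between the cells. Inside the cell, plakoglobin (JUP) and the plakophilins (PKP), all armadillo repeat proteins, bind the cadherin tails, and the plakin desmoplakin (DSP) links them to keratin or vimentin. Epithelial cells lose much of this machinery when they take on a mesenchymal form, and MDA-MB-231 is a line of mesenchymal form. APT1 removes palmitate from membrane proteins, and several desmosomal proteins carry palmitate.

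Depth was 12381931 to 18667383 estimated reads per library. LYPLA1 stood at 80.5 to 92.7 TPM (transcript abundance as a share of the library, corrected for transcript length) in control, 30.5 to 38.2 in shAPT1 and 169 to 171 in APT1wt, so the labels held for the targeted gene. All 8 markers of the line reached a group mean of 1 TPM in every group. Of 7 luminal breast markers, 3 reached it in control, 3 in shAPT1 and 4 in APT1wt. ESR1 and PGR, the hormone receptor genes, stayed below it. Keratinocyte markers other than KRT10 and SFN had group means below 1 TPM, with KRT1, DSG1 and DSG3 at 0 in every library. Summed markers of other cell types differed between the groups. The 7 endothelial markers summed to 41.3 to 50.7 TPM in control, 59.3 to 77.4 in shAPT1 and 102 to 106 in APT1wt. Most of it came from ESAM, with CDH5 and VWF below 1 TPM. A group mean of 1 TPM was reached by 4 of them in control, 3 in shAPT1 and 2 in APT1wt. The 8 leukocyte markers summed to 632 to 747, 367 to 389 and 395 to 433 TPM, and 4 of them reached that mean in every group. The sum came mostly from CD74 and HLA-DRA, with MS4A1 at 0 and PTPRC below 1 TPM. The part of these shifts in the results below was not tested. In every group replicate 1 stood further from the other 2 libraries than those did from each other. Chi-square per gene was 12.3 and 18.3 beside 7.39 in shAPT1. It was 8.49 and 7.13 beside 2.10 in control, and 5.21 and 6.46 beside 2.48 in APT1wt. Member calls that changed without shAPT1 replicate 1 are given below.

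PKP4 was the most abundant member in every group, at 88.6 ± 5.62 TPM in control (SD, n = 3), a level above that of 87.8% of tested genes. In control it was followed by DSG2 at 31.9 ± 3.88, PERP at 26.4 ± 0.874, PKP2 at 13.3 ± 0.652, JUP at 13.3 ± 1.01, DSP at 7.24 ± 0.541 and PKP3 at 5.95 ± 0.855 TPM. PPL, at 0.849 ± 0.0268, and DSC2, at 0.291 ± 0.142, were low, and DSC3 was near 0. PKP2 and JUP overlapped in their control libraries, as did DSP and PKP3, and all other neighbours in this order were separate. In shAPT1 the order became PKP4, PERP, DSG2, PKP2, DSP, JUP, PKP3, PPL and DSC2, with an overlap between PPL and DSC2. In APT1wt it became PKP4, PERP, DSG2, DSP, PKP2, JUP, PKP3, PPL and DSC2, with overlaps between DSG2 and DSP and between PKP2 and JUP. DSP thus moved from a level above 36.6% of tested genes in control to one above 53.7% in shAPT1 and 55.9% in APT1wt.

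**Figure D1:**
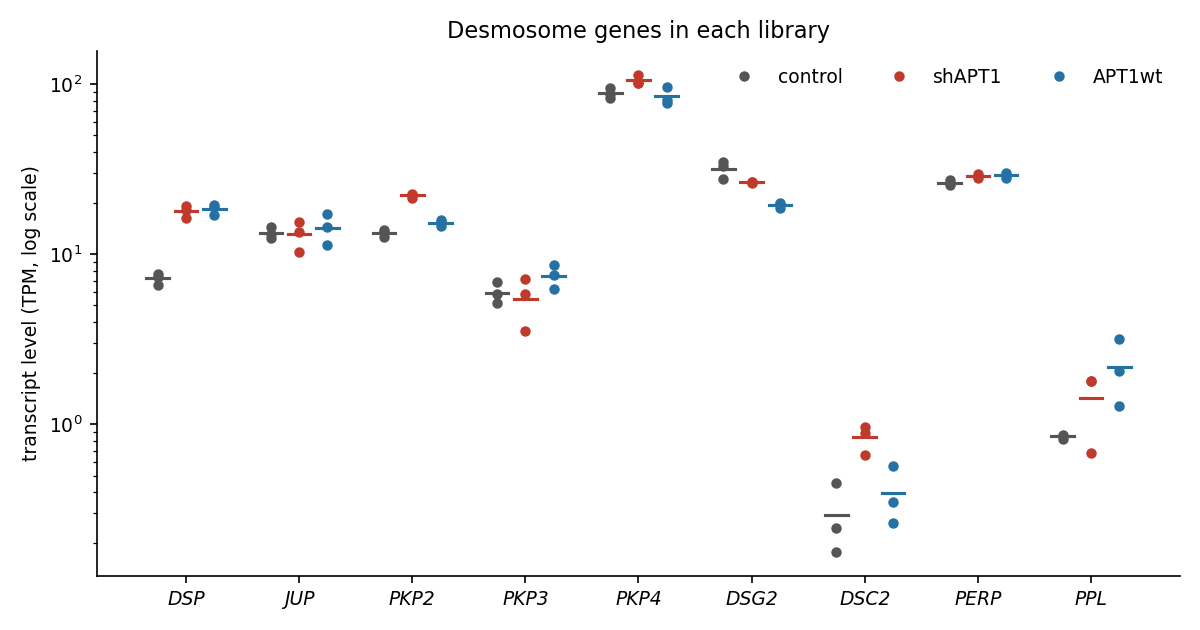
Transcript level of 9 desmosome genes in TPM on a log axis, with a point for each of the 9 libraries and a bar at the mean of each group (3 libraries). DSP is near 7.24 TPM in control and near 18 TPM in both other groups, while DSG2 falls from 31.9 to 26.5 and 19.5 TPM; DSC3, near 0, is not drawn.

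A rise in 4 members and a fall in 1 were measured in shAPT1 against control. DSP rose 2.41-fold (95% confidence interval 2.16 to 2.69), DSC2 2.11-fold (1.39 to 3.22), PKP2 1.55-fold (1.37 to 1.75) and PKP4 1.17-fold (1.08 to 1.26), while DSG2 went to 0.794 of control (0.715 to 0.882). These 5 of 9 tested members passed an adjusted p of 0.05 in edgeR's quasi-likelihood test with Benjamini-Hochberg adjustment over 15233 genes, where 24.4% of all tested genes passed. The members' median log2 fold change was 0.22, beside -0.00 over all tested genes. TPM did not overlap between the groups for 6 members, the 5 above and PERP, beside 31.1% of all tested genes. DSC3 had too few reads to be tested.

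In APT1wt against control 3 members rose and 1 fell. DSP rose 2.60-fold (2.34 to 2.91), PPL 2.16-fold (1.34 to 3.48) and PKP3 1.31-fold (1.07 to 1.60), and DSG2 went to 0.619 of control (0.556 to 0.688). The background was 23.4% of tested genes past the same threshold, with 35% whose TPM did not overlap, and the members' median log2 fold change was 0.16. DSP, PKP2, DSG2, PERP and PPL were the 5 members without overlap. In a fit of these 6 libraries alone PERP passed as well (log2 fold change 0.15, adjusted p = 0.040), and 4653 of all genes passed instead of 3568. Samples with the same replicate number deviated together in this comparison, and adding the number as a block to that fit gave an adjusted p of 0.022 for PERP and 5367 genes. With the block in all 9 libraries PERP missed the threshold (adjusted p = 0.12) and 3625 genes passed. Only DSP and DSG2 passed when any control library, or APT1wt replicate 2 or 3, was left out.

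Set directly against each other, shAPT1 was higher than APT1wt for PKP2 (1.44-fold, 1.28 to 1.62), PKP4 (1.203-fold, 1.11 to 1.30), DSG2 (1.28-fold, 1.15 to 1.43) and DSC2 (1.88-fold, 1.25 to 2.81) and lower for PKP3 (0.655 of APT1wt, 0.536 to 0.8003). Here 25.1% of all tested genes passed, and TPM did not overlap for 4 members, PKP2, PKP4, DSG2 and DSC2, beside 32.9% of all tested genes. The members' median log2 difference was -0.10, shAPT1 minus APT1wt, beside 0.00 over all tested genes. Of the 5 calls, those of PKP2 and DSG2 remained with an offset for mean transcript length, and the count of members past the threshold was then 2.

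**Figure D2:**
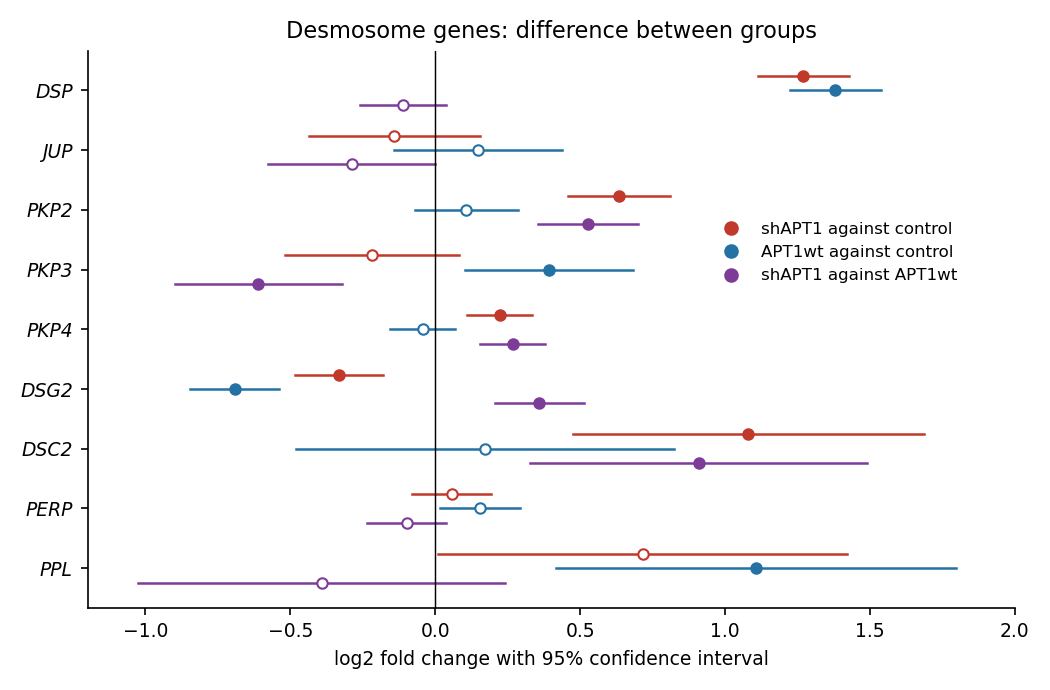
Log2 fold change of each of the 9 tested desmosome genes with its 95% confidence interval in the 3 comparisons, by edgeR; filled points passed an adjusted p of 0.05. The DSP intervals for both comparisons with control lie above 1.1, while the direct comparison of DSP spans 0; the intervals of DSG2 lie below 0 against control and above 0 between the arms.

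DSP (ENSG00000096696.13; GRCh38, chr6:7541575-7586717, plus strand) encodes desmoplakin, the plakin that anchors filaments to the plaque. It is spliced into a long and a short protein-coding transcript that differ in exon 23 of 24. The long one, ENST00000379802.7 of 9796 nt, keeps 1797 nt more of that exon (chr6:7579773-7581569) than ENST00000418664.2 of 7812 nt. The extra stretch encodes part of the central rod of the protein. The junction letters are shown because both forms were present in all 9 libraries. Lower case marks 20 bases shared by both and capitals the 20 bases that follow, from GENCODE 29 on GRCh38, 5′ to 3′.
DSP long: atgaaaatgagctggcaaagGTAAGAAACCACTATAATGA
DSP short: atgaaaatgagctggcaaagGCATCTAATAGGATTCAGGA

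In control, DSP was at 6.63, 7.67 and 7.40 TPM. The shAPT1 libraries had 19.2, 16.3 and 18.2 TPM and the APT1wt libraries 16.9, 19.4 and 18.9 TPM, from 1436 to 2179 estimated reads each beside 538 to 704 in control. Every library of both arms was above every control library, and the arms overlapped each other. The log2 fold change was 1.27 ± 0.07 (SE) in shAPT1 (adjusted p = 3.5e-08) and 1.38 ± 0.07 in APT1wt (adjusted p = 2.4e-08). Both passed in all 21 other settings tried. Between the arms the log2 difference was -0.11 ± 0.07 (95% confidence interval -0.26 to 0.04, adjusted p = 0.27). It reached -0.22 (adjusted p = 0.034) when the shift shared by the 50 tested genes to either side was taken out of each library (removal of neighbouring genes).

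Both DSP transcripts were higher in the arms. The long form went from 2.56, 3.05 and 3.56 TPM in control to 9.46, 8.91 and 9.42 in shAPT1 and 7.50, 8.91 and 9.85 in APT1wt. The short form went from 4.07, 4.63 and 3.84 TPM to 9.79, 7.41 and 8.77 in shAPT1 and 9.44, 10.5 and 9.08 in APT1wt. Neither form overlapped between control and an arm. The long form made up 42.1% ± 5.19 of DSP TPM in control (SD, n = 3), beside 51.8% ± 2.74 in shAPT1 and 47.4% ± 4.09 in APT1wt. Its ratio of mean TPM to control was 3.03 in shAPT1 and 2.86 in APT1wt, beside 2.07 and 2.32 for the short form. How Salmon's division of reads between forms that share most of their sequence varies is not recorded in the files, so these shares are a description.

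**Figure D3:**
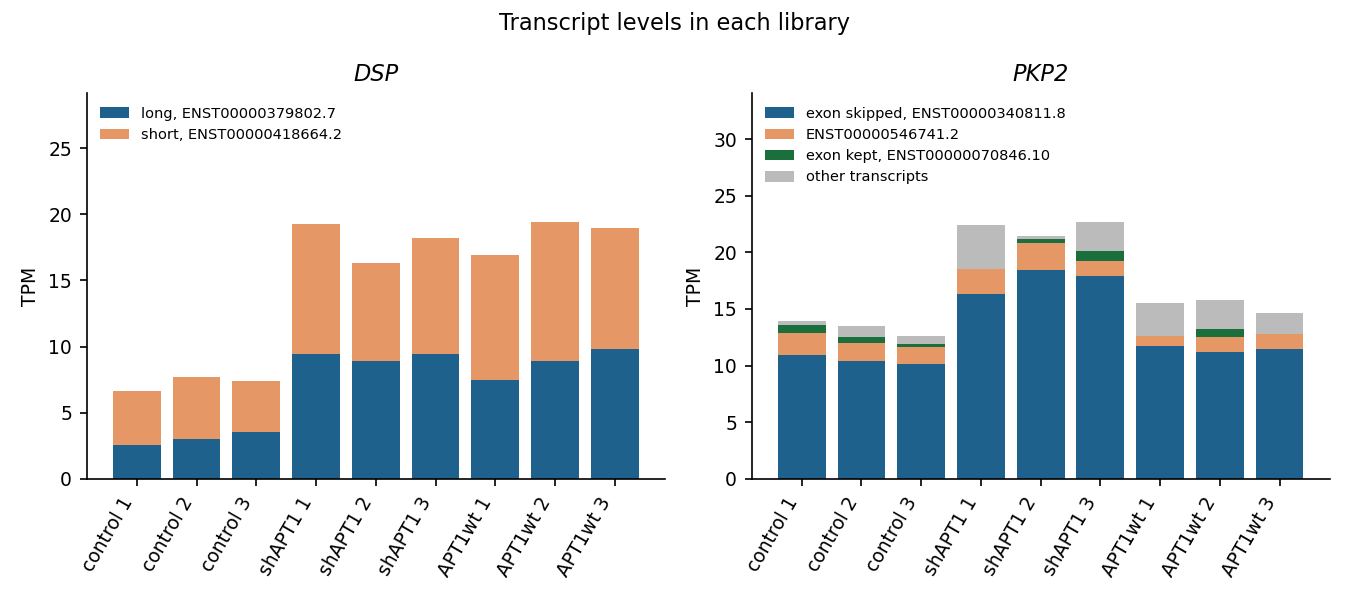
Stacked TPM of the transcripts of DSP (left) and PKP2 (right) in each of the 9 libraries. Both DSP forms are larger in all 6 libraries of the arms than in any control library, and nearly all PKP2 signal lies in forms other than ENST00000070846.10, which keeps the 132 nt exon and stays under 1 TPM.

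The stretch before the start of DSP is shown with that of DSG2, the member that moved the opposite way in both arms. The capitals mark the E-box letters CAGGTG, the kind of site that repressors of the SNAIL and ZEB families bind (RefSeq promoters, GRCh38.p14, plus strand, printed up to the GENCODE gene start).
DSP chr6:7541421-7541574: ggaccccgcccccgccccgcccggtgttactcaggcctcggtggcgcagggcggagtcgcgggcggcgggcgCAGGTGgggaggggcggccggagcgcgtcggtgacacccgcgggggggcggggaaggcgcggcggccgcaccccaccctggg
DSG2 chr18:31497927-31498042: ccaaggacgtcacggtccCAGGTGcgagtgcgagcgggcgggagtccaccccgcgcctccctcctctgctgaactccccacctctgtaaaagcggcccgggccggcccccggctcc
Over 300 bases, 250 before to 50 after the RefSeq start, CAGGTG or its reverse complement CACCTG stood 178 and 85 bases before the start in DSP and 232 and 116 bases before it in DSG2. The sites at 85 bases in DSP and 116 in DSG2 lay past the GENCODE gene start, and so outside the stretches printed. The table held 10 promoters of 7 members, and 4 of them, 1 each of DSP, DSG2, JUP and DSC2, had the letters. Among all 35116 promoters held there, 20.6% had them at least once and 3.49% at least 2 times. The members that held the letters rose, fell or did not pass in these data, and a match of letters is not a binding site.

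PPL (ENSG00000118898.15; chr16:4882507-4960741, minus strand) encodes periplakin, a plakin of the desmosomal plaque and the cornified envelope. Its TPM was 0.871, 0.857 and 0.820 in control. The shAPT1 libraries were split, at 0.681, 1.79 and 1.80 TPM, and the APT1wt libraries had 1.27, 3.16 and 2.05 TPM, all above control. In shAPT1, replicate 1 lay below the control range and the other 2 above it. The log2 fold change in shAPT1 was 0.72 ± 0.33 (adjusted p = 0.13), and 1.03 (adjusted p = 0.0071) without shAPT1 replicate 1. Without a filter on low counts it passed as well (adjusted p = 0.0013). In APT1wt, PPL rose by a log2 fold change of 1.11 ± 0.32 (adjusted p = 0.023). That call was lost without any one control library (adjusted p = 0.060, 0.065 and 0.075), without APT1wt replicate 2 (0.091) or 3 (0.089), and with limma-voom (0.059). The arms differed by -0.39 ± 0.30 (shAPT1 minus APT1wt; adjusted p = 0.37), or by -0.46 (adjusted p = 0.043) with a replicate block in the 6 libraries.

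JUP (ENSG00000173801.16; chr17:41754604-41786931, minus strand) encodes plakoglobin, which works in desmosomes and in adherens junctions and is a close relative of beta-catenin. JUP was measured at 12.4, 14.4 and 13.1 TPM in control. It was 15.4, 10.3 and 13.5 in shAPT1 and 11.3, 17.2 and 14.5 in APT1wt. All 3 groups overlapped. The log2 fold changes against control were -0.14 ± 0.14 (95% confidence interval -0.44 to 0.15, adjusted p = 0.50) in shAPT1 and 0.15 ± 0.14 (-0.14 to 0.44, adjusted p = 0.48) in APT1wt. Between the arms the difference was -0.29 ± 0.14 (adjusted p = 0.14). It passed without shAPT1 replicate 1 (-0.39, adjusted p = 0.045), without APT1wt replicate 1 (-0.44, adjusted p = 0.021) and when genes of low counts were kept (adjusted p = 0.030). JUP transcripts amounted to 10.1% ± 0.383 of the TPM of CTNNB1, the beta-catenin gene, in control, 8.93% ± 1.25 in shAPT1 and 8.81% ± 1.62 in APT1wt. Of 12 JUP transcripts listed, ENST00000393931.7 (5.86 ± 1.74 TPM in control) and ENST00000310706.9 (5.40 ± 2.43) carried most of the level. They traded places between libraries of control and of APT1wt, while ENST00000393931.7 was the higher in every shAPT1 library.

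PKP2 (ENSG00000057294.14; chr12:32790745-32896840, minus strand) encodes the plakophilin most widely found outside stratified epithelia, and the one best known from heart muscle. It stood at 13.9, 13.5 and 12.6 TPM in control and at 22.5, 21.4 and 22.7 TPM in shAPT1. In APT1wt it was 15.5, 15.8 and 14.6 TPM. The shAPT1 libraries lay above all others. PKP2 rose in shAPT1 by a log2 fold change of 0.63 ± 0.08 (adjusted p = 7.0e-05) and exceeded APT1wt by 0.53 ± 0.08 (adjusted p = 3.0e-04), and both calls were kept in all 21 other settings. In APT1wt the log2 fold change was 0.11 ± 0.08 (-0.07 to 0.29, adjusted p = 0.39), although the TPM of the groups did not overlap, and it did not pass in any other setting.

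Most PKP2 signal came from ENST00000340811.8, which skips an exon of 132 nt (chr12:32843182-32843313) that ENST00000070846.10 keeps. The letters at the junction are given because they tell the 2 forms apart. Lower case is the shared end of the exon before and capitals are what follows, 5′ to 3′ on the transcript, from GENCODE 29.
PKP2 without the exon: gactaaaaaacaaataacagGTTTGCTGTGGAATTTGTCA
PKP2 with the exon: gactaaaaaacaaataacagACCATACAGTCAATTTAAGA
The form without the exon had 10.9, 10.4 and 10.1 TPM in control, 16.3, 18.4 and 17.9 in shAPT1 and 11.7, 11.2 and 11.4 in APT1wt. The form with it had at most 0.834 TPM in any library and was listed at 0 in 3 of them. Most of the rise in shAPT1 thus lay in the form that lacks the exon, from a mean of 10.5 to 17.6 TPM beside 13.3 to 22.2 for the gene. A retained-intron transcript, ENST00000546769.1, averaged 0.0133 ± 0.0227 TPM in control and 0.920 ± 0.391 in APT1wt. In shAPT1 it was uneven, at 3.53, 0 and 0.783 TPM. As for DSP, the division of reads between forms is a description. Another coding transcript, ENST00000546741.2, had group means of 1.67 ± 0.228 (control), 1.99 ± 0.585 (shAPT1) and 1.18 ± 0.254 TPM (APT1wt).

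PKP3 (ENSG00000184363.9; chr11:392614-404908, plus strand) encodes a plakophilin of most simple and stratified epithelia. It stood at 5.82, 5.17 and 6.86 TPM in control, at 3.53, 5.81 and 7.13 in shAPT1 and at 6.23, 8.61 and 7.50 in APT1wt. Replicate 1 of shAPT1 was the lowest of the 9 libraries, and the groups overlapped in TPM. The log2 fold change was -0.22 ± 0.14 (adjusted p = 0.29) in shAPT1, and ranged from -0.30 to -0.08 with each library left out. In APT1wt it was 0.39 ± 0.14 (adjusted p = 0.049), a call lost in 12 of 21 other settings. Among these were each control and each APT1wt library left out in turn and shAPT1 replicate 2 left out (adjusted p = 0.056 to 0.16), the transcript length offset (adjusted p = 0.38) and DESeq2 (adjusted p = 0.084). PKP3 was lower in shAPT1 than in APT1wt by -0.61 ± 0.13 (adjusted p = 0.0045). This difference ranged from -0.69 to -0.47 with each library left out, and was -0.37 (adjusted p = 0.029) once neighbouring genes were removed. The call ended with the length offset (adjusted p = 0.16) and in the authors' scaled table (adjusted p = 0.13). The main coding transcript, ENST00000331563.6, averaged 4.44 ± 0.343, 3.96 ± 0.732 and 5.78 ± 0.247 TPM in control, shAPT1 and APT1wt, and in it the APT1wt libraries were separate from the other 6.

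PKP4 (ENSG00000144283.21; chr2:158456964-158682879, plus strand) encodes a more distant relative, also called p0071, that is found at adherens junctions and at the midbody as well as at desmosomes. The control libraries had 88.0, 94.5 and 83.4 TPM. Those of shAPT1 had 101.9, 101.98 and 114 TPM, all above control, and those of APT1wt had 77.6, 95.7 and 80.9 TPM, which overlapped control. PKP4 rose in shAPT1 by 0.22 ± 0.05 on the log2 scale (adjusted p = 0.0066). The call ended with the length offset, in the authors' scaled table (both adjusted p = 0.13), after removing neighbouring genes (0.12, adjusted p = 0.14) and with a replicate block in the 6 libraries (adjusted p = 0.063). In APT1wt the log2 fold change was -0.04 ± 0.05 (adjusted p = 0.60), which became -0.20 (adjusted p = 0.026) after removal of neighbouring genes. The direct difference was 0.27 ± 0.05 (adjusted p = 0.0020), or 0.25 with the length offset (adjusted p = 0.054) and 0.25 in the authors' scaled table (adjusted p = 0.056). Of 18 PKP4 transcripts listed, the coding ENST00000389759.7 averaged 42.2 ± 4.28 TPM among control libraries, 49.99 ± 0.700 among those of shAPT1 and 38.5 ± 1.501 among those of APT1wt. A second coding form, ENST00000389757.7, averaged 11.3 ± 0.631, 14.9 ± 1.86 and 11.7 ± 0.816 TPM in the same order. ENST00000426248.7, annotated as a target of nonsense-mediated decay, averaged 9.90 ± 1.37, 12.9 ± 1.67 and 10.3 ± 1.29 TPM.

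The summed TPM of the plakophilins PKP1 to PKP4 was 108 ± 5.12 in control, 134 ± 8.71 in shAPT1 and 107 ± 11.1 in APT1wt. PKP4 made up 82.0%, 79.3% and 78.8% of the sum, PKP2 12.4%, 16.6% and 14.3%, and PKP3 5.54%, 4.07% and 6.91%. These levels take in transcripts of every type. For PKP4 they include forms not annotated as coding, such as ENST00000426248.7 and the retained-intron ENST00000483881.1 (7.65 ± 2.50 TPM in control). PKP1, the plakophilin of the upper epidermis, had 8 reads over all 9 libraries.

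DSG2 (ENSG00000046604.12; chr18:31498043-31549008, plus strand) encodes desmoglein 2, the desmoglein of simple epithelia and heart. It was measured at 27.6, 35.0 and 33.2 TPM in control. In shAPT1 it was 26.3, 26.5 and 26.6 TPM, and in APT1wt 18.8, 19.9 and 19.8 TPM. The 3 groups did not overlap, and the order was control, shAPT1, APT1wt. DSG2 fell by 0.33 ± 0.07 on the log2 scale in shAPT1 (adjusted p = 0.0034) and by 0.69 ± 0.07 in APT1wt (adjusted p = 9.1e-06). The direct difference was 0.36 ± 0.07 in favour of shAPT1 (adjusted p = 0.0023). All 3 calls were kept in all 21 other settings. The 50 tested genes on each side of DSG2 were on the median 0.23 higher in shAPT1 than in control, and with that removed the fall in shAPT1 was -0.56 (adjusted p = 8.4e-05) and the direct difference 0.22 (adjusted p = 0.043). The whole level came from ENST00000261590.12.

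DSC2 (ENSG00000134755.14; chr18:31058840-31102522, minus strand) encodes desmocollin 2, the partner cadherin of desmoglein 2 in simple epithelia. It had 19, 21 and 18 estimated reads in control, 46, 46 and 51 in shAPT1 and 17, 20 and 39 in APT1wt, or 0.178, 0.450 and 0.246, then 0.962, 0.664 and 0.887, then 0.262, 0.348 and 0.569 TPM. All shAPT1 libraries were above all others. DSC2 rose in shAPT1 by 1.08 ± 0.28 (adjusted p = 0.012), a call lost without control replicate 3 (0.94, adjusted p = 0.066). In APT1wt the log2 fold change was 0.17 ± 0.30 (-0.48 to 0.82, adjusted p = 0.74), and -0.14 without APT1wt replicate 3. The direct difference was 0.91 ± 0.27 (adjusted p = 0.025) and lost its call in 6 of 21 other settings: without shAPT1 replicate 1 (adjusted p = 0.064), APT1wt replicate 1 (0.10) or APT1wt replicate 2 (0.067), with the length offset (0.073), in the authors' scaled table (0.065) and after removal of neighbouring genes (0.052).

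DSC3 (ENSG00000134762.16; chr18:30990008-31042815, minus strand), a desmocollin of the lower layers of stratified epithelia, had 4.5 estimated reads in all, in 3 of 9 libraries. DSG1, DSG3, DSG4 and DSC1, the remaining desmosomal cadherin genes, had no reads among 137116469 over the 9 libraries. Counting 3 reads as the limit that 0 allows, each lay below 0.0219 CPM (reads scaled to library size), which covers counting error only. DSG2 thus made up 99.1% ± 0.331 of desmosomal cadherin TPM in control, beside 96.9% ± 0.624 in shAPT1 and 98.02% ± 0.767 in APT1wt. The summed cadherin TPM was 32.2 ± 4.001, 27.3 ± 0.169 and 19.9 ± 0.733, so the gain in DSC2 in shAPT1 was small beside the level of DSG2.

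PERP (ENSG00000112378.11; chr6:138088505-138107511, minus strand), a p53 and p63 target, encodes a tetraspan membrane protein needed for stable desmosomes in skin. It stood at 25.6, 26.3 and 27.3 TPM in control, 29.6, 28.8 and 28.0 in shAPT1 and 30.2, 28.1 and 29.1 in APT1wt. Control lay below both arms without overlap, by little. The log2 fold changes were 0.06 ± 0.06 (-0.08 to 0.19, adjusted p = 0.57) in shAPT1 and 0.16 ± 0.06 (0.02 to 0.29, adjusted p = 0.097) in APT1wt. In APT1wt it passed in a fit of these 6 libraries (0.15, adjusted p = 0.040) and without shAPT1 replicate 1 (0.15, adjusted p = 0.047). Genes around PERP were on the median 0.22 higher in shAPT1 and 0.21 higher in APT1wt, and with that removed both values turned negative, to -0.16 (adjusted p = 0.083) and -0.06 (adjusted p = 0.58). The direct difference was -0.10 ± 0.06 (-0.23 to 0.04, adjusted p = 0.28).

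The opposite movement of DSP and DSG2 changed their proportion in every library. The ratio of DSP to DSG2 TPM was 0.241, 0.219 and 0.223 in control, 0.732, 0.615 and 0.683 in shAPT1 and 0.901, 0.976 and 0.954 in APT1wt. The 3 groups did not overlap. Against control this had to follow, because DSP rose and DSG2 fell in both arms, each without overlap, in these same libraries. The genes were paired for that opposite movement, so the ratio is a description and not a separate test. The mean ratio was 0.228 ± 0.0114, 0.677 ± 0.0588 and 0.944 ± 0.0386 (SD, n = 3 each), and with 3 libraries a group the smallest exact permutation p is 0.1, so no p is given. Between the arms DSG2 was lower in APT1wt, while DSP overlapped in TPM and the interval of its difference spanned 0. The separation of the ratio between the arms thus rested on DSG2.

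**Figure D4:**
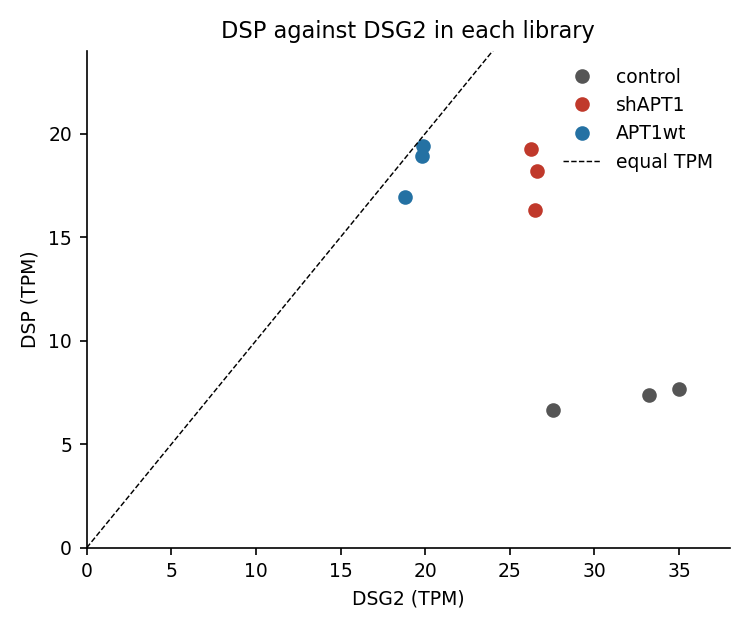
DSP against DSG2 TPM in each of the 9 libraries, coloured by group, with a dashed line of equal TPM. The control libraries lie low and to the right (DSP 6.63 to 7.67, DSG2 27.6 to 35.0), and the APT1wt libraries lie just under the line of equal TPM.

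Other desmosome and cornified envelope genes, apart from EVPL, were nearly silent. Of the 8 genes DSG1, DSG3, DSG4, DSC1, PKP1, EVPL, CDSN and IVL, 4 were at 0 in all libraries and EVPL, which encodes the plakin envoplakin that pairs with periplakin, was the 1 with enough reads to test. EVPL passed in neither comparison with control, and it was lower in shAPT1 than in APT1wt (17.8 ± 1.60 against 20.5 ± 1.54 TPM; log2 difference -0.35 ± 0.08, adjusted p = 0.0053). That call ended with the length offset (adjusted p = 0.077) and in the authors' scaled table (0.075).

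Among 13 tested adherens junction genes of 16 listed, 7 rose and 1 fell in shAPT1 and 8 rose and 1 fell in APT1wt, with medians of 0.25 and 0.32. Of all tested genes 24.4% passed in shAPT1, 23.4% in APT1wt and 25.1% between the arms. These shares are the background for this list and those that follow. CDH11, a mesenchymal cadherin, rose from 9.89 ± 0.427 TPM in control to 43.2 ± 5.75 in shAPT1 (log2 fold change 2.17 ± 0.08, adjusted p = 1.1e-09) and to 24.99 ± 3.09 in APT1wt (1.45 ± 0.08, adjusted p = 4.7e-08), and it differed between the arms (0.72 ± 0.08, adjusted p = 1.3e-05). NECTIN1, an immunoglobulin-like adhesion receptor, fell from 14.6 ± 1.34 to 9.48 ± 1.85 TPM (-0.82 ± 0.11, adjusted p = 1.4e-04) and 7.47 ± 0.755 TPM (-1.18 ± 0.12, adjusted p = 6.8e-06). NECTIN3 rose by 0.33 ± 0.07 in shAPT1 (adjusted p = 0.0044), a call that ended with the length offset and in the authors' scaled table. E-cadherin, encoded by CDH1, stayed low: 0.555, 1.39 and 0.383 TPM in control, 0.647, 1.29 and 0.434 in shAPT1 and 0.586, 0.566 and 2.76 in APT1wt. The 3 groups overlap. Its summed reads passed in both arms, by 1.04 ± 0.34 in shAPT1 (adjusted p = 0.038) and 1.12 ± 0.34 in APT1wt (adjusted p = 0.027), with a direct difference of -0.08 ± 0.29 (adjusted p = 0.88). In shAPT1 13 of 21 other settings ended the call, among them those without any 1 control library, shAPT1 replicate 2 or 3, or APT1wt replicate 3, and the length offset gave 0.13. In APT1wt 7 ended it, among them those without control replicate 2 or 3, or APT1wt replicate 1 or 3. Between the arms 4 were higher in shAPT1 and 2 lower, among them AFDN, the afadin gene (-0.40 ± 0.07, adjusted p = 0.0010). Against control AFDN rose by 0.65 ± 0.07 in APT1wt (adjusted p = 1.9e-05) and by 0.25 ± 0.07 in shAPT1 (adjusted p = 0.023), the second lost in 5 other settings, among them those without control replicate 1 or shAPT1 replicate 2, with 0.02 after removal of neighbouring genes. The difference of NECTIN1 between the arms (0.36 ± 0.12, adjusted p = 0.042) was lost in 13 of 21 other settings, including every single library left out except shAPT1 replicate 1.

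Tight junction genes seal the space between neighbouring epithelial cells. Of 16 tested among 19, 7 rose and 2 fell in shAPT1 and 5 rose and 1 fell in APT1wt, with medians of 0.22 and 0.10. Between the arms 5 of 16 passed, near the 25.1% of all tested genes. F11R, the gene of the adhesion molecule JAM-A, rose from 2.75 ± 0.490 TPM to 6.49 ± 2.23 in shAPT1 (1.18 ± 0.15, adjusted p = 5.2e-05) and 6.94 ± 0.556 in APT1wt (1.34 ± 0.14, adjusted p = 1.3e-05). CGN, which encodes cingulin, rose from 1.27 ± 0.364 TPM to 5.27 ± 2.08 in shAPT1 (1.88 ± 0.14, adjusted p = 4.2e-07). In APT1wt CGN stood at 1.92 ± 0.217 TPM (1.02 ± 0.15, adjusted p = 2.1e-04), and the call ended with the length offset (0.67, adjusted p = 0.16) and in the authors' scaled table (0.64, adjusted p = 0.15). CLDN11 rose in shAPT1 (1.21 ± 0.19, adjusted p = 3.9e-04) and stood at 0.01 ± 0.21 in APT1wt (adjusted p = 0.98). OCLN, the occludin gene, rose in both arms, from 7.51 ± 1.05 TPM to 16.8 ± 1.44 in shAPT1 (0.94 ± 0.09, adjusted p = 5.5e-06) and 13.4 ± 1.03 in APT1wt (0.87 ± 0.09, adjusted p = 1.1e-05), with a direct difference of 0.07 ± 0.09 (adjusted p = 0.62). Directly, 3 were higher in shAPT1, led by CLDN11 (1.202 ± 0.19) and CLDN2 (1.18 ± 0.30, lost without shAPT1 replicate 2 or APT1wt replicate 3), and 2 were lower, among them CLDN3 (-1.01 ± 0.35, adjusted p = 0.049, lost in 13 of 21 other settings and without any 1 library other than shAPT1 replicate 3).

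Desmoplakin anchors intermediate filaments to the desmosome. Of 13 tested filament and plakin genes, 4 rose and 1 fell in shAPT1 and 4 rose and 2 fell in APT1wt, with medians of 0.00 and 0.10. The simple epithelial keratin genes KRT7, KRT8 and KRT18 rose in both arms, while KRT19, another keratin gene on this list, passed in neither. KRT8 rose from 188 ± 8.18 TPM to 308 ± 62.0 in shAPT1 (0.64 ± 0.10, adjusted p = 5.0e-04) and 253 ± 2.93 in APT1wt (0.43 ± 0.10, adjusted p = 0.0083). KRT7 rose from 245 ± 19.5 TPM to 343 ± 13.9 (0.37 ± 0.07, adjusted p = 0.0012) and 369 ± 26.0 (0.56 ± 0.07, adjusted p = 4.5e-05). KRT18 rose from 229 ± 6.01 TPM to 351 ± 54.0 (0.54 ± 0.09, adjusted p = 4.4e-04) and 336 ± 11.7 (0.56 ± 0.09, adjusted p = 3.6e-04). None of the 3 passed between the arms (adjusted p = 0.15, 0.062 and 0.92 for KRT8, KRT7 and KRT18). KRT15 fell in both, from 5.36 ± 2.03 to 3.38 ± 1.199 TPM in shAPT1 (-1.04 ± 0.20, adjusted p = 0.0017, lost with the length offset and in the authors' scaled table) and 1.97 ± 1.01 TPM in APT1wt (-1.66 ± 0.21, adjusted p = 6.1e-05). NES, the nestin gene, passed in shAPT1 (0.65 ± 0.21, adjusted p = 0.038), and 11 of 21 other settings ended that call, among them those without control replicate 1 or 3, shAPT1 replicate 2 or 3, or APT1wt replicate 2 or 3. PLEC, which encodes the plakin plectin, was lower in shAPT1 than in APT1wt, at 158 ± 28.3 against 248 ± 18.3 TPM (-0.68 ± 0.11, adjusted p = 4.2e-04). Against control PLEC stood at -0.30 ± 0.11 in shAPT1 (adjusted p = 0.057) and 0.38 ± 0.11 in APT1wt (adjusted p = 0.019), and the second call ended without control replicate 1 or 3 or APT1wt replicate 1 or 2 and after removal of neighbouring genes (0.16). Between the arms NES (0.76 ± 0.21, adjusted p = 0.017) and VIM, the vimentin gene (0.20 ± 0.06, adjusted p = 0.024), were higher in shAPT1. Against control VIM stood at -0.05 ± 0.06 in shAPT1 (adjusted p = 0.63) and fell by 0.25 ± 0.06 in APT1wt (adjusted p = 0.0082), a call that ended after removal of neighbouring genes (-0.05). The direct difference of NES lost its call in 4 other settings, among them those without shAPT1 replicate 2 or 3 or APT1wt replicate 1. That of VIM lost it in 6, among them those without shAPT1 replicate 2 or any 1 APT1wt library, and stood at 0.10 after removal of neighbouring genes.

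**Figure D5:**
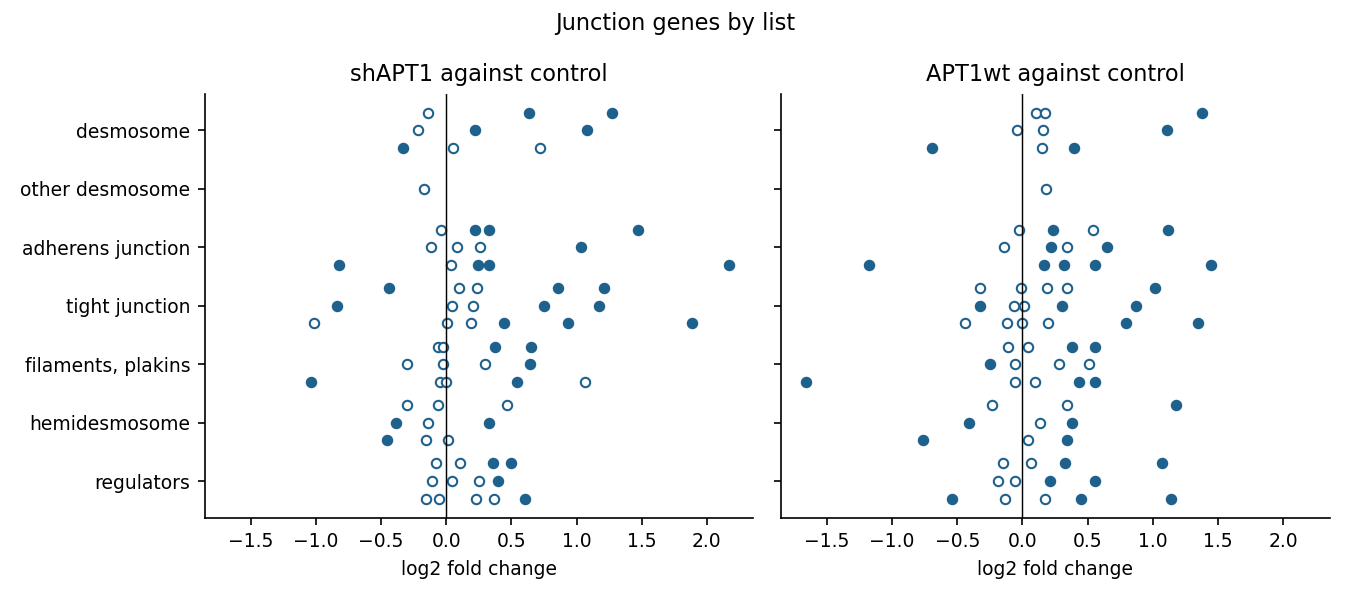
Log2 fold change of each tested gene in 7 junction lists, shAPT1 against control on the left and APT1wt against control on the right; filled points passed an adjusted p of 0.05, and the vertical scatter within a list only separates the points. In both panels the adherens junction list has more filled points above 0 than below it (7 against 1, and 8 against 1).

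Hemidesmosome genes, which tie the same filaments to the basement membrane, gave 1 rise and 2 falls of 9 tested in shAPT1 and 3 rises and 2 falls in APT1wt, with medians of -0.14 and 0.14. The 3 of 9 called in shAPT1 and 5 of 9 in APT1wt stand beside 24.4% and 23.4% of all tested genes, so the first lies near the background. Directly, none was higher in shAPT1 and 3 of 9 were lower, near the 25.1% of all tested genes that passed between the arms. The laminin gene LAMB3 fell in both, from 196 ± 7.67 TPM to 162 ± 19.3 (-0.38 ± 0.07, adjusted p = 0.0015) and 151 ± 8.89 (-0.41 ± 0.07, adjusted p = 0.0011). ITGA6 rose from 138 ± 21.7 TPM to 182 ± 3.57 in shAPT1 (0.33 ± 0.08, adjusted p = 0.0071) and 173 ± 6.13 in APT1wt (0.34 ± 0.08, adjusted p = 0.0061), and the second call ended after removal of neighbouring genes (0.24, adjusted p = 0.059). Its direct difference was -0.01 ± 0.08 (adjusted p = 0.93). ITGB4, its integrin partner, rose in APT1wt from 18.9 ± 0.985 to 41.4 ± 6.06 TPM (1.17 ± 0.17, adjusted p = 2.2e-04). It stood at 0.47 ± 0.18 in shAPT1 (adjusted p = 0.066), where replicate 1 had 16.2 TPM and replicates 2 and 3 had 28.3 and 30.4. ITGB4 was lower in shAPT1 than in APT1wt (-0.71 ± 0.17, adjusted p = 0.0071), a call kept in all 21 other settings, as was PLEC. CD151 was lower as well (-0.27 ± 0.08, adjusted p = 0.020), a call that ended in 4 other settings, among them that without APT1wt replicate 2, with -0.12 after removal of neighbouring genes. COL17A1, a transmembrane collagen gene, fell in APT1wt (-0.76 ± 0.16, adjusted p = 0.0030, lost with the length offset at 0.060 and in the authors' scaled table at 0.056). Its value in shAPT1 (-0.45 ± 0.15, adjusted p = 0.046) failed in 12 of 21 other settings, among them those without control replicate 2 or 3, shAPT1 replicate 2 or 3, or APT1wt replicate 2 or 3, and was -0.15 with the length offset.

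Of 20 listed regulators of desmosome expression and assembly, 13 were tested. In shAPT1, 4 rose and none fell, and in APT1wt 6 rose and 1 fell, with medians of 0.23 and 0.17. The 4 of 13 called in shAPT1 lie near the 24.4% of all tested genes, and the 7 of 13 in APT1wt stand beside 23.4%. ESRP2, an epithelial splicing regulator, rose from 2.11 ± 0.222 TPM to 3.76 ± 0.418 in shAPT1 (0.61 ± 0.15, adjusted p = 0.0092) and 4.80 ± 0.879 in APT1wt (1.14 ± 0.15, adjusted p = 6.2e-05). The metalloprotease gene ADAM10, whose product cleaves cadherins including desmoglein 2, rose in shAPT1 from 112 ± 12.2 to 162 ± 4.38 TPM (0.50 ± 0.07, adjusted p = 1.6e-04). In APT1wt ADAM10 passed by 0.21 ± 0.07 (adjusted p = 0.042), a call that 10 of 21 other settings ended, among them those without control replicate 1 or 2, shAPT1 replicate 2 or any 1 APT1wt library, and it was higher in shAPT1 than in APT1wt (0.28 ± 0.07, adjusted p = 0.0086). PRKCA, the gene of the kinase PKC alpha that phosphorylates desmoplakin, rose in both arms (0.40 ± 0.08, adjusted p = 0.0017, and 0.45 ± 0.08, adjusted p = 7.7e-04). SNAI1, the SNAIL repressor gene, rose in APT1wt from 0.959 ± 0.118 to 1.99 ± 0.425 TPM (1.07 ± 0.27, adjusted p = 0.011). Leaving out control replicate 3 (adjusted p = 0.055) or replicate 3 of APT1wt (0.073) ended the call. In shAPT1 SNAI1 stood at 0.23 ± 0.29 (adjusted p = 0.62). The transcription factor gene KLF5 rose in both arms, by 0.36 ± 0.09 in shAPT1 (adjusted p = 0.0074) and 0.55 ± 0.09 in APT1wt (adjusted p = 3.1e-04), but stood at 0.09 (adjusted p = 0.41) and -0.01 (adjusted p = 0.92) after removal of neighbouring genes. The shAPT1 call also ended with the length offset and in the authors' scaled table. Between the arms 5 of 13 passed, beside 25.1% of all tested genes. Of these, 2 were higher in shAPT1, among them KLF4 (0.48 ± 0.10, adjusted p = 0.0027), and 3 were lower. Against control KLF4 fell by 0.54 ± 0.10 in APT1wt (adjusted p = 0.0014) and stood at -0.06 ± 0.10 in shAPT1 (adjusted p = 0.72). ESRP2 (-0.53 ± 0.13, adjusted p = 0.010) and SNAI1 (-0.84 ± 0.26, adjusted p = 0.029) were among those lower in shAPT1, and their calls were lost in 3 and 7 other settings. For ESRP2 these included leaving out shAPT1 replicate 2, and for SNAI1 leaving out shAPT1 replicate 1 or 3 or APT1wt replicate 2 or 3.

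DSP had the smallest p of the members over the 3 groups, and the protein-coding genes most like it were sought by the root mean square difference of centred log2 CPM (read counts scaled to library size) over the 9 libraries. F11R came first at 0.104, followed by COL4A1, a basement membrane collagen gene, at 0.124, the transcription factor gene ONECUT2 at 0.133, SLC1A3, a glutamate transporter gene, at 0.144 and the potassium channel gene KCNS3 at 0.154. The median difference over 12714 coding genes was 0.655. In all 5, as in DSP, the mean TPM was higher in both arms than in control, as the measure requires.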

How the data were processed

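Total RNA of 9 MDA-MB-231 libraries was sequenced. FastQC, Salmon, DESeq2 and GRCh38.p10 are named per the submitters' processing notes, their versions not given in the sources used here. For 199324 transcripts the deposited Salmon tables give TPM and estimated counts (expected counts). A gene table deposited by the authors gives a signal scaled in a way not given in the sources used here, with column sums of 14557704 to 15505929, and served as an alternative. Whether counting used strand is not given. The antisense genes that overlap PKP2, PKP4, DSG2, DSC2 and PPL reached at most 1.06 TPM, and RP11-8P13.5, inside PKP2 on the same strand, 2.95 TPM.

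Estimated counts were summed per gene and rounded. Genes were kept by filterByExpr (15233), scaled by TMM and fitted over all 9 libraries with edgeR 4.0.16 (quasi-likelihood, Benjamini-Hochberg, threshold 0.05; limma 3.58.1, R 4.3.3, Python 3.11.15, numpy 2.4.6, pandas 2.3.3, matplotlib 3.10.9). The fit was tested on simulated data for shAPT1 against control, with 100 genes changed 1.5-fold and 100 changed 2-fold, up or down. It recovered 62% of the former and 76% of the latter, and 11 of 149 calls were false. A gene that did not pass may thus still differ. Positions came from GENCODE 29 on GRCh38, promoters from RefSeq. TPM was summed per gene for levels. Alternatives were RLE factors, library totals alone, no filter, at least 20 reads in 3 libraries, a transcript length offset, a replicate block, only the 2 groups compared, limma-voom, the deposited table with limma (log2 of the value plus 1), DESeq2 1.42.0, removal of neighbouring genes and each library left out. The block within 2 groups, and running the alternatives on the companion lists, were added after seeing the data.

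The members, lists and rules were chosen with earlier results of these data known. Named were all members, LYPLA1, up to 3 genes of each companion list past 0.05 with the largest change and at least 1 TPM in either group, most transcripts of at least 1 TPM and 10% of their gene, and the 5 genes most like DSP. The PKP2 transcripts ENST00000070846.10 and ENST00000546769.1 were named as well, though each averaged below 10% of its gene in every group. ESAM, CDH5, VWF, CD74, HLA-DRA, PTPRC, MS4A1, KRT10, SFN, ESR1 and PGR were named as markers after their values were seen. Fibroblast markers summed to 17.9 to 20.7 TPM in control, 13.3 to 22.7 in shAPT1 and 20.1 to 24.7 in APT1wt, luminal breast markers to 99.0 to 105, 94.7 to 147 and 113 to 123, keratinocyte markers to 141 to 153, 129 to 143 and 126 to 134, and line markers to 4449 to 5037, 4631 to 5183 and 4262 to 4565.

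What the replicate numbers share is not given in the labels. Deviations of same-numbered libraries from their group means correlated at 0.29, 0.16 and 0.17 between APT1wt and control, which was taken as pairing, at -0.10, -0.04 and -0.06 between shAPT1 and control, and at 0.19, 0.10 and -0.09 between the arms, which were not. Unlike numbers of APT1wt and control correlated at -0.20 to 0.10. The upper values, 0.09 and 0.10, were those between replicates 2 and 3, so these 2 numbers were only weakly told apart.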

Additional observations from a re-analysis of the deposited data

How the results depend on the processing

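Over the 9 tested members, 3 comparisons and 21 other settings, 520 of 567 fold changes kept their direction and side of the threshold, 33 lost the call, 11 gained it and 3 turned. DSP and DSG2 against control, and PKP2 in shAPT1 against both other groups, kept direction and call in all 21. The turned values were PERP after removal of neighbouring genes (-0.16 in shAPT1, -0.058 in APT1wt) and DSC2 in APT1wt without APT1wt replicate 3 (-0.14; the range with each library left out was -0.14 to 0.44). Among companion genes, KLF5 in APT1wt turned to -0.015 after removal of neighbouring genes. The number of all genes past the threshold was 3719 for shAPT1 and 3568 for APT1wt against control and 3829 between the arms. It was 2307, 2230 and 2373 with the length offset and 2326, 2236 and 2357 in the deposited table, and 2343 for APT1wt against control after removal of neighbouring genes; the cause was not tested. Under both the length offset and the deposited table, 2 members passed between the arms. With a replicate block in all 9 libraries the counts of all genes were 3754, 3625 and 3872 and no count of members changed. With only the 2 groups compared and no block they were 3112, 4653 and 3182. With the block as well they were 2696, 5367 and 3596, with 4, 5 and 6 members. Leaving out each library in turn gave 4 to 6, 2 to 5 and 4 to 5 members, and 2616 to 4096, 2298 to 4825 and 2573 to 4104 of all genes; the lowest for APT1wt came without APT1wt replicate 3. Depth limits DSC2, PPL and DSC3 most, with 17 to 51, 36 to 165 and at most 2 reads a library.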
